A study of Mus musculus with 6 samples.

Results

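Kcnq5 and 6 genes named with it, Slc35f3, Ckb, Cap2, Aqp9, Npas2 and Anxa1, were followed through single-cell RNA-seq of T cells sorted from mouse kidney. These 7 of the 32285 genes in the files had been picked by symbol because earlier work with the same matrices showed them high in double negative (CD4-, CD8-; DN) T cells and in the cells with the most Kcnq5. Their levels in the libraries and their joint variation over cells are therefore a description and were not tested. Wild-type male C57BL/6J mice aged 7 to 8 weeks either were left normal (control) or had ischemia-reperfusion (IR) after a 30 min clamp on each renal pedicle. CD45+ TCR beta+ cells were sorted as CD4, CD8 and DN cells, which gave 6 groups with 1 library each, so no difference has a replicate check. The sources used here do not give how many mice went into a library or how long after clamping the IR kidneys were taken.

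KCNQ channels are voltage-gated potassium channels that open on depolarisation and do not inactivate, and they are best known for damping the firing of neurons and the tone of smooth muscle. In T cells potassium efflux keeps the membrane potential negative, which maintains the driving force for calcium entry after receptor engagement. The other members have unrelated biochemical roles. Slc35f3 encodes a membrane carrier linked to thiamine transport, and Aqp9 a channel for water and glycerol. Ckb encodes the cytosolic brain-type creatine kinase, which passes phosphate between ATP and creatine. Cap2 encodes a cyclase-associated protein that binds actin, Anxa1 a calcium-dependent phospholipid-binding annexin that also acts as a secreted ligand of formyl peptide receptors, and Npas2 a transcription factor that can take the place of Clock beside Arntl in the circadian clock.

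The genes differ in architecture. In GENCODE M21 on GRCm38, Kcnq5 (ENSMUSG00000028033) spans chr1:21398403-21961942 on the minus strand, with 555851 bases of intron, an intronic length at percentile 99.1 of the genes at 10 CPM or more in any library. Slc35f3 (ENSMUSG00000057060) lies at chr8:126298558-126395482 and Cap2 (ENSMUSG00000021373) at chr13:46501848-46650281, both on the plus strand. Npas2 (ENSMUSG00000026077), at chr1:39193731-39363236 on the plus strand, shares its chromosome with Kcnq5. Aqp9 (ENSMUSG00000032204) lies at chr9:71110659-71168682 and Anxa1 (ENSMUSG00000024659) at chr19:20373428-20390944, both on the minus strand. Ckb (ENSMUSG00000001270) at chr12:111669361-111672338, minus strand, is the compact one, with 83 bases of intron. Genes or pseudogenes on the opposite strand overlap Kcnq5, Cap2, Aqp9, Npas2 and Anxa1, and whether strand was used in counting was not given, so their reads may not be told apart. Among the overlapping genes present in the files, 1500015L24Rik beside Anxa1 had the most UMIs, 535 in control DN.

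RefSeq promoter windows (GRCm38.p6, 250 bases before to 50 after a transcript start) were found for all 7 members (10 windows), with a GC content between 41.3% and 76.0% against a median of 52.7% over 32851 windows. The 250 bases upstream are shown 5′ to 3′ for Kcnq5, the gene the set is named for, for Slc35f3, the member with the largest control DN ratios, and for Ckb and Anxa1, the members with a TATA box. Capitals mark a GC box (GGGCGG or its complement) or a TATA box (TATAAA).
Kcnq5 (chr1:21961943-21962192, minus strand): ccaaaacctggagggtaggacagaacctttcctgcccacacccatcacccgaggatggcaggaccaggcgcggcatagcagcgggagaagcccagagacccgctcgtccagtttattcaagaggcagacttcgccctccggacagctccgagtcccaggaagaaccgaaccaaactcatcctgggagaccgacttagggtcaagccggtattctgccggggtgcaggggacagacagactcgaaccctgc
Slc35f3 (chr8:126298329-126298578, plus strand): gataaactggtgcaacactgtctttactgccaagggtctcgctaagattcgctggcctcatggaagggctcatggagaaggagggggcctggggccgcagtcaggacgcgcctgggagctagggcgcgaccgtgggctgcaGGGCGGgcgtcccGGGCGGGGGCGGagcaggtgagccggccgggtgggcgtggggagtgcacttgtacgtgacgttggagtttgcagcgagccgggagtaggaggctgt
Ckb (chr12:111672339-111672588, minus strand): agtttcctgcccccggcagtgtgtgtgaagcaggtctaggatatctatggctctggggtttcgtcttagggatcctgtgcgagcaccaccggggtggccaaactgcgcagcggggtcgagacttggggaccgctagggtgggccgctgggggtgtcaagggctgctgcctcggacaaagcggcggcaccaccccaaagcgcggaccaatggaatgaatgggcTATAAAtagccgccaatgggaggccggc
Anxa1 (chr19:20390672-20390921, minus strand): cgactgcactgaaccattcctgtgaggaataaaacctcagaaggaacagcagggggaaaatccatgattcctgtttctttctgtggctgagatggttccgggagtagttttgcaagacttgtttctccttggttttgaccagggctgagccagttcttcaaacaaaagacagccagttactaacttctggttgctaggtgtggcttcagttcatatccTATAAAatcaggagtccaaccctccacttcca
The Slc35f3 window shown held 3 GC boxes, the other Slc35f3 window 1 and the Npas2 window 1, and neither Kcnq5 window held any of the 4 motifs searched. The TATA box began 28 bases before the start of Ckb and 32 before that of Anxa1. On either strand, TATAAA occurred in 13.6% of all 300-base windows and GGGCGG in 35.7%. The E-box CACGTG, the motif read by Npas2 with Arntl, occurred in 7.15% of all windows and the core AGGTCA of ROR response elements in 16.3%, and neither was found in the 10 member windows. The marked matches do not overlap.

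The libraries differed by condition before any gene was compared. After filtering, 47940 of 54039 barcodes remained, 4042 to 10108 per library, with a median of 6627 to 8365 UMIs (counted RNA molecules) per cell in the control libraries and 1450.5 to 2355.5 in the IR libraries. Mitochondrial, ribosomal protein and Malat1 UMIs made up 21.02% to 26.6% of control and 30.5% to 45.3% of IR UMIs and were left out of the totals. File headers name Cell Ranger 5.0.1 for control and 6.0.1 for IR, so condition, depth and software version cannot be told apart. Within a condition 26 to 62 barcodes per library recurred in another library. A Cd3 UMI was found in 92.1% to 99.2% of cells, and the sort held: Cd4 was 210 CPM (UMIs per 1000000 retained UMIs) in control CD4 and at most 0.466 CPM in the CD8 and DN libraries, and Cd8a, at 867 CPM in control CD8, was 0.247 CPM in control DN.

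Kcnq5 was abundant in DN cells, intermediate in CD4 cells and low in CD8 cells, in both conditions. Its level was 2371 CPM in control DN (95% Poisson interval 2359 to 2383), 1402 CPM in control CD4 (1391 to 1412) and 115 CPM in control CD8 (112 to 119). After IR it was 829 CPM in DN (802 to 857), 373 CPM in CD4 (363 to 382) and 46.6 CPM in CD8 (41.4 to 52.1). No intervals overlapped, and the order ran control DN, control CD4, IR DN, IR CD4, control CD8, IR CD8. These intervals, like all those below, cover counting error only.

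The other membrane proteins kept the order of the subsets at lower levels. Slc35f3 was 85.8 CPM in control DN (83.5 to 88.2), 33.0 in control CD4 (31.4 to 34.6) and 1.40 in control CD8 (1.08 to 1.79). In the IR libraries it was 49.7 CPM in DN (43.3 to 56.8), 18.4 in CD4 (16.3 to 20.6) and 1.40 in CD8 (0.639 to 2.65, 9 UMIs). Slc35f3 was the only member whose IR DN level stood above control CD4, and its CD8 levels could not be told apart between conditions. Aqp9 was 35.5 CPM in control DN (34.0 to 37.0), 22.7 in control CD4 (21.4 to 24.0) and 4.39 in control CD8 (3.802 to 5.04). After IR its levels were 16.2 CPM in DN (12.6 to 20.4), 8.79 in CD4 (7.37 to 10.4) and 1.71 in CD8 (0.852 to 3.05, 11 UMIs), with all 6 intervals apart.

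Ckb, the kinase of the creatine circuit, was 245 CPM in control DN (241 to 249), 167 in control CD4 (163 to 170) and 30.6 in control CD8 (29.0 to 32.2). It was 129 CPM in IR DN (118 to 140), 96.6 in IR CD4 (91.8 to 102) and 11.3 in IR CD8 (8.88 to 14.2). The span between DN and CD4 was the narrowest of the members, in control as after IR. Anxa1 was 228 CPM in control DN (225 to 232), 104 in control CD4 (101 to 107) and 13.7 in control CD8 (12.6 to 14.8). It was 82.5 CPM in IR DN (74.3 to 91.5), 39.4 in IR CD4 (36.4 to 42.7) and 4.35 in IR CD8 (2.89 to 6.28). For Ckb and for Anxa1 no interval overlapped its neighbour.

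The actin regulator Cap2 was 61.8 CPM in control DN (59.8 to 63.8), 28.7 in control CD4 (27.2 to 30.2) and 1.25 in control CD8 (0.948 to 1.62, 57 UMIs). After IR it was 22.3 CPM in DN (18.1 to 27.2), 10.3 in CD4 (8.74 to 12.002) and 3.10 in CD8 (1.90 to 4.79, 20 UMIs). The clock factor Npas2 was at 24.9 CPM in control DN (23.7 to 26.2), 15.5 in control CD4 (14.4 to 16.6) and 0.615 in control CD8 (0.408 to 0.888, 28 UMIs). Its IR levels were 12.3 CPM in DN (9.25 to 16.1), 8.01 in CD4 (6.67 to 9.55) and 2.33 in CD8 (1.30 to 3.84, 15 UMIs). The Npas2 interval in IR DN overlapped those of control CD4 and IR CD4, while those of control CD4 and IR CD4 lay apart. Cap2 and Npas2 were the members whose CD8 level was higher after IR than in control.

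**Figure D1:**
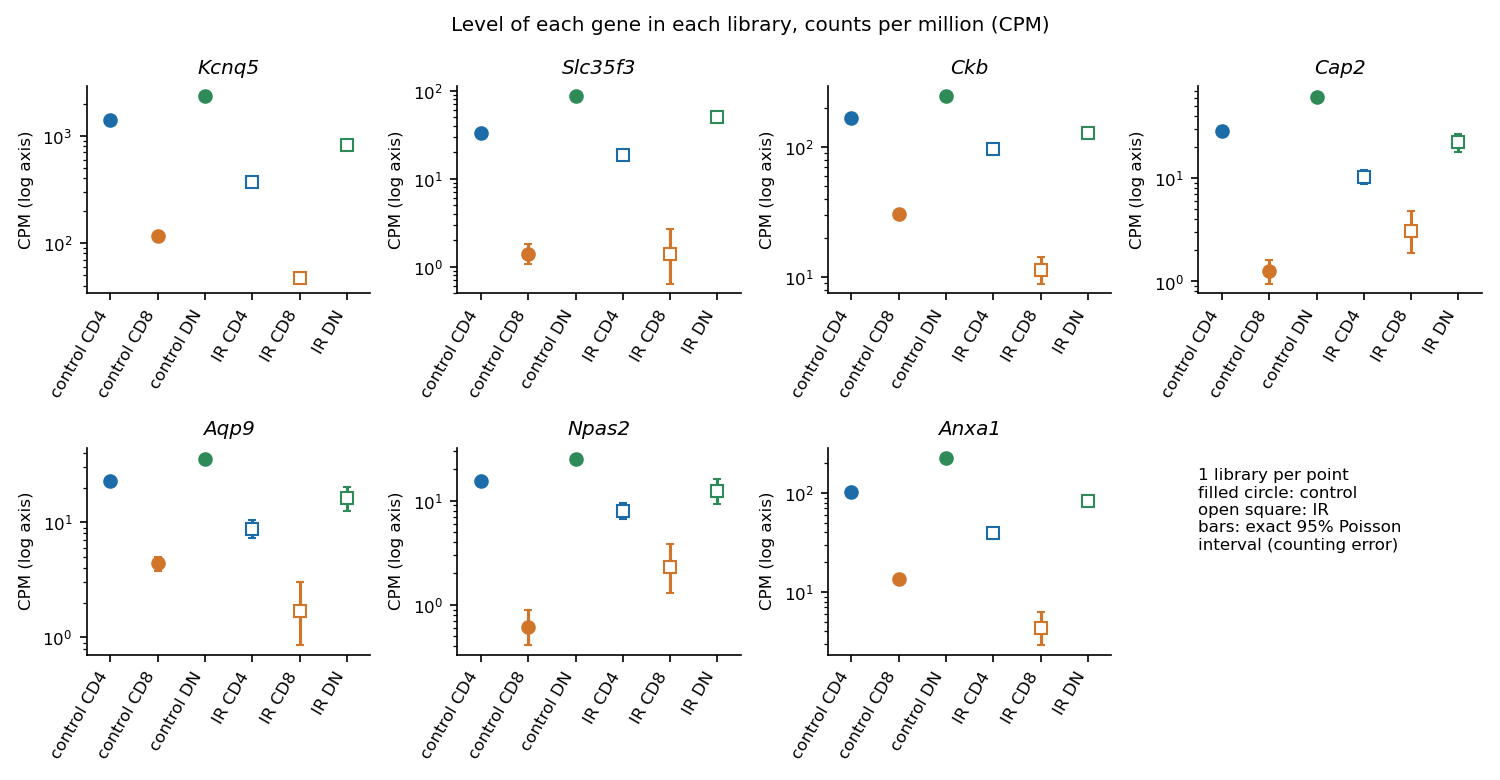
Level of each of the 7 genes in the 6 libraries, in CPM on a log axis, with exact 95% Poisson intervals as bars (counting error only, 1 library per point). In every panel DN is highest and CD8 lowest within a condition, as for Kcnq5 with 2371, 1402 and 115 CPM in control DN, CD4 and CD8.

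Counted by a rule of size (10 CPM or more in the higher library and at least a 2-fold ratio), the members set DN apart from CD8 far more than from CD4. Between control DN and control CD8 all 7 members were called higher, where 3.53% of 8969 genes were higher and 3.03% lower. The log2 ratios ran from 3.002 for Ckb (8.01-fold) to 5.93 for Slc35f3 (61.1-fold), with 4.36 for Kcnq5, 4.06 for Anxa1 and 5.34 for Npas2. Between control CD4 and control CD8 all 7 were again higher (2.61% of 8917 genes higher, 1.75% lower), from 2.37 for Aqp9 to 4.65 for Npas2. Between control DN and control CD4 only 3 of the 7 were called, all higher (1.35% of 8859 genes higher, 1.40% lower). These were Slc35f3 (1.38), Anxa1 (1.14) and Cap2 (1.11). Kcnq5 itself was under the 2-fold line, at 0.76 (0.75 to 0.77), as were Npas2 at 0.69, Aqp9 at 0.64 and Ckb at 0.56. The median log2 ratio of all genes lay between −0.03 and 0.00 in these control comparisons. The members were picked for this pattern, so the counts describe them and add no evidence for it.

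The IR libraries gave the same order. IR DN stood above IR CD8 for all 7 members (7.74% of 8985 genes higher, 4.21% lower), with log2 ratios from 2.40 for Npas2 to 5.15 for Slc35f3 and 4.15 for Kcnq5. IR CD4 stood above IR CD8 for all 5 members that reached 10 CPM (3.73% of 8749 genes higher, 3.90% lower), from 1.73 for Cap2 to 3.72 for Slc35f3. Aqp9 and Npas2 were under 10 CPM there, at log2 ratios of 2.36 and 1.78. IR DN stood above IR CD4 for 4 of 7 (4.84% of 8899 genes higher, 2.46% lower), namely Slc35f3 (1.44), Kcnq5 (1.15), Cap2 (1.12) and Anxa1 (1.07). Centred on genes of like intronic length, the Kcnq5 ratio was 0.80 and that of Cap2 0.97, which left 2 members called. TMM scaling put Anxa1 at 0.97 and ended its call.

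A sum over a library does not tell more positive cells from more molecules per cell, so Kcnq5 was also read in cells thinned to 500 UMIs each. A Kcnq5 UMI was then found in 55.9% of control DN cells (95% Clopper-Pearson interval 54.9 to 56.96), 31.8% of control CD4 cells (30.9 to 32.8) and 4.86% of control CD8 cells (4.43 to 5.31). After IR the shares were 27.3% of DN (25.9 to 28.7), 11.9% of CD4 (11.3 to 12.6) and 2.12% of CD8 cells (1.78 to 2.50). Without thinning they were 88.2%, 54.2% and 15.5% in control DN, CD4 and CD8, and 43.5%, 23.6% and 3.90% after IR. No cell was under 500 UMIs, so none was left out. Positive cells of control DN and control CD4 held much the same number of Kcnq5 UMIs, a mean of 2.17 and 2.19 of 500, against 1.24 in control CD8. The 2 control libraries therefore differed in the share of positive cells and hardly in the mean of a positive cell. After IR the mean was 1.44 in DN and 1.44 in CD4 cells and 1.07 in CD8 cells.

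Kcnq5 was concentrated in a fraction of the CD4 cells and spread more evenly over the DN cells. Without thinning, the tenth of cells richest in Kcnq5 held 51.1% of its UMIs in control CD4 and 33.0% in control DN, and single cells reached 204 and 149 UMIs. At 500 UMIs, 4.27% of control DN cells and 2.76% of control CD4 cells still held 5 or more Kcnq5 UMIs, against 0.0322% in control CD8, 0.247% in IR DN and 0.158% in IR CD4. No IR CD8 cell held 5.

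**Figure D2:**
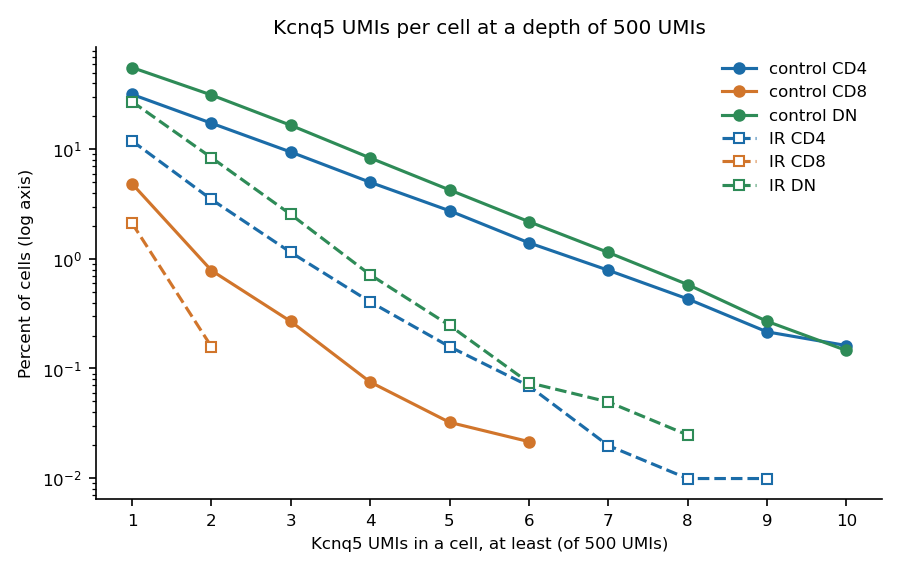
Percent of cells (log axis) with at least the number of Kcnq5 UMIs on the x axis, each cell thinned to 500 UMIs, with 1 line per library. Control DN and control CD4 are the 2 highest lines (31.4% and 17.4% at 2 or more UMIs), and the CD8 lines drop fastest (0.785% in control and 0.158% after IR).

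The same shares were read in the 341 barcodes of the 2 clusters with few Cd3 UMIs, a median of 1577 UMIs each, as a rough measure of free RNA, pooled over the subsets and conditions. Kcnq5 was found in 4.40% of them at 500 UMIs (2.48 to 7.15), and the shares in control CD8 and IR CD8 did not stand clearly above it. The pool therefore cannot tell expression from free RNA in those libraries. Without thinning, single cells held up to 42 Kcnq5 UMIs in control CD8 and 4 in IR CD8. The pool is no single library's background, since Kcnq5 was at 613 CPM in its 37 control and 72.3 CPM in its 304 IR barcodes. Ckb reached 32.3% there and Anxa1 5.28%, so for these 2 genes the clusters are no background. Slc35f3 was found in 2 of the barcodes (0.587%) and Cap2 in 1 (0.293%), above their control CD8 shares of 0.0430% and 0.0215%. Aqp9 and Npas2 were found in 0 of 341, which allows a share of up to 0.880% by the floor of 3 counts and 1.08% by the exact interval. In control DN, by contrast, Anxa1 was found in 9.99% of cells at 500 UMIs, Slc35f3 in 3.51%, Cap2 in 3.05%, Aqp9 in 1.61% and Npas2 in 1.15%. The exact upper limits of the pool were 2.10% for Slc35f3, 1.62% for Cap2 and 1.08% for Aqp9 and for Npas2. In control DN the shares of all 4 were above these, though the interval of Npas2, from 0.936%, reached below. Elsewhere only that of Slc35f3 in IR DN was above, at 2.40%, and its interval, from 1.95%, also reached below. The other thinned shares of these 4 genes, such as 1.48%, 1.44%, 1.03% and 0.875% in control CD4, were not above. These limits rest on only 341 barcodes, so those shares are not told apart from the pool on their own.

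Within a library the other members varied with Kcnq5 across cells, more clearly among CD4 than among DN cells. Cells were thinned to 2000 UMIs, and Pearson's r was taken on log values of 8253 control CD4 and 8593 control DN cells, which share library and depth. In control CD4, r with Kcnq5 was 0.225 for Slc35f3, 0.217 for Cap2, 0.213 for Ckb, 0.200 for Aqp9, 0.190 for Anxa1 and 0.155 for Npas2. All 6 were at 0.1 or more, as were 3.41% of the 4198 genes at 50 CPM or more, whose median r was −0.002. Only Ckb and Anxa1 reached 50 CPM there, so the other 4 are not among these genes. In control DN, r was 0.142 for Anxa1, 0.124 for Slc35f3, 0.119 for Cap2, 0.117 for Ckb, 0.093 for Aqp9 and 0.063 for Npas2. Here 4 of 6 were at 0.1 or more, as were 1.24% of 4201 genes. With counts as sparse as these, an r under 0.1 is no finding.

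Most cells with another member also held Kcnq5. In control CD4, 317 of the 329 cells with a Slc35f3 UMI had Kcnq5, as did 309 of 347 with Cap2, 292 of 331 with Aqp9 and 182 of 207 with Npas2, while Kcnq5 was found in 3990 of all 8253 cells. The overlap was looser for Anxa1 (825 of 1157) and Ckb (1186 of 1819). Read the other way, the 317 cells were a small share of the 3990 with Kcnq5. In control DN, where 6991 of 8593 cells had Kcnq5, 891 of 954 with Slc35f3 and 2276 of 2547 with Anxa1 had it too. Among the other 6 genes, r ran from 0.040 to 0.127 in control CD4 and from 0.002 to 0.093 in control DN, below most of their values with Kcnq5.

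Binning the cells by their Kcnq5 count gives the size behind these coefficients. From control CD4 cells with no Kcnq5 UMI (4263 cells) to those with 5 or more (1845 cells), Slc35f3 went from 1.52 (0.812 to 2.61) to 87.0 CPM of the thinned counts. Cap2 went from 5.28 to 69.9, Aqp9 from 4.69 to 56.9 and Npas2 from 3.28 to 39.8 CPM over the same bins. The 2 abundant members spanned less, Anxa1 from 50.9 to 164 and Ckb from 91.8 to 266 CPM. In control CD4 the point value of each of the 6 was higher in each successive bin of 0, 1, 2, 3 to 4 and 5 or more UMIs. Slc35f3, for example, was at 1.52, 21.9, 28.7, 58.3 and 87.0 CPM.

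In control DN the floor was higher and the span smaller. Slc35f3 was 26.8 CPM in the 1602 DN cells with no Kcnq5 UMI and 122 in the 3629 with 5 or more, and Anxa1 was 122 and 282. Cap2 went from 30.6 to 84.9, Aqp9 from 12.5 to 47.9, Npas2 from 14.4 to 32.5 and Ckb from 154 to 279 CPM. Aqp9, Npas2 and Ckb had 1 step down each along the bins, to 27.5, 15.5 and 279 CPM. DN cells without a Kcnq5 UMI thus had more Slc35f3, Cap2, Anxa1, Aqp9, Npas2 and Ckb than CD4 cells without one, with no interval overlapping. The median depth before thinning was 7182 to 7649 UMIs over the CD4 bins and 8236 to 8625 over the DN bins.

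**Figure D3:**
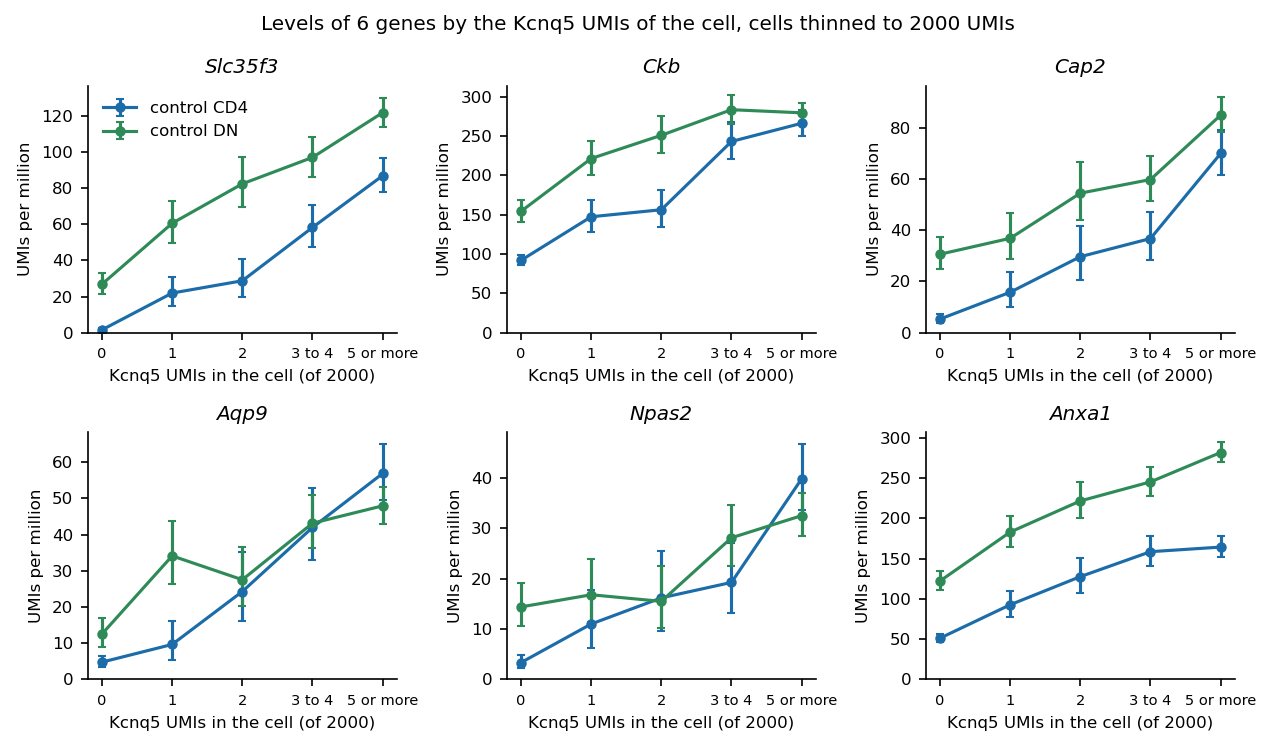
Level of the other 6 genes (CPM of thinned counts, with exact 95% Poisson intervals) in cells grouped by their number of Kcnq5 UMIs out of 2000, for control CD4 and control DN. Slc35f3 runs from 1.52 to 87.0 CPM in CD4 cells and from 26.8 to 122 in DN cells, and the smallest ratio from the first to the last bin is that of Ckb.

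Several members together were most frequent in the Kcnq5-rich cells. At least 1 of the other 6 genes was found in 22.2% of control CD4 cells without Kcnq5 and 62.8% of those with 5 or more UMIs, and at least 2 in 2.74% and 26.2%. In control DN the shares were 35.4% and 72.6% for at least 1, and 11.3% and 33.9% for at least 2. In control CD8 they were 8.01% and 11.6% for at least 1, with only 43 cells at 5 or more Kcnq5 UMIs. At 500 UMIs, the depth all 6 libraries share, r of the 6 with Kcnq5 ran from 0.065 to 0.126 in control CD4 and from 0.024 to 0.055 in control DN. It ran from 0.010 to 0.064 in IR CD4, with Ckb the highest, from −0.014 to 0.026 in IR DN, from −0.003 to 0.024 in control CD8 and from −0.011 to 0.014 in IR CD8. Outside control CD4 all of these values were under 0.1 and are no finding.

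The genes most like Kcnq5 were mostly not the members. By r among genes at 50 CPM or more, Lyst, the lysosomal trafficking regulator, came first in control CD4 (0.459) and in control DN (0.376). Lyst was 995 CPM in control CD4, 447 in control CD8 and 1553 in control DN, and 348, 130 and 684 CPM in the matching IR libraries. In control CD4 it was followed by Zbtb16, which encodes the transcription factor PLZF of innate-like T cells (0.359), the Tec family kinase gene Txk (0.353), the chromatin organiser Satb1 (0.349) and the surface antigen gene Ly6c2 (0.335). Atp8b4 (0.333), the sialyltransferase gene St6galnac3 (0.325) and Tex2 (0.314) completed the first 8. In control DN the list after Lyst was Satb1 (0.276), Gm2682 (0.212), the interferon gamma receptor gene Ifngr1 (0.200), the phosphatase gene Inpp4b (0.188), Atp8b4 (0.171), Gramd3 (0.170) and the AP-1 subunit gene Jun (0.167). Lyst, Satb1 and Atp8b4 were in both lists, while Zbtb16 had an r of 0.020 in control DN.

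The members took lower places. Among 8639 genes at 10 CPM or more in control CD4, Slc35f3 ranked 24, Cap2 27, Ckb 30, Aqp9 36, Anxa1 42 and Npas2 64 by r with Kcnq5. Among 8640 genes in control DN, Anxa1 ranked 15, Slc35f3 28, Cap2 33, Ckb 35, Aqp9 67 and Npas2 175. r may depend on abundance as well, which was not tested. The lowest values in control CD4 were those of the integrin gene Itga4 (−0.360), Tcf7, which encodes TCF-1 (−0.244), the interleukin 7 receptor gene Il7r (−0.244) and the chemokine gene Ccl5 (−0.234). In control DN they were those of Ccl5 (−0.410), Itga4 (−0.306), Cd7 (−0.268) and the integrin gene Itgb1 (−0.227). From DN cells without Kcnq5 to those with 5 or more UMIs, Ccl5 went from 3836 to 651 and Itga4 from 435 to 63.7 CPM.

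The clustering, made without the 7 genes and without receptor segments, put most Kcnq5-rich cells in 1 cluster. Cluster 9 held 4401 control DN and 1890 control CD4 cells, and Slc35f3, Cap2, Aqp9, Ckb, Kcnq5 and Anxa1 were among its 10 leading genes, with Ly6c1 and Rab27b. Kcnq5 was 3165 CPM in its DN and 3287 CPM in its CD4 cells. Within cluster 9 the DN and CD4 cells were also close in Slc35f3 (127 and 102 CPM), Cap2 (81.9 in each), Ckb (367 and 394), Aqp9 (51.2 and 62.7), Npas2 (39.0 and 42.7) and Anxa1 (289 and 224). Cluster 9 made up 49.5% of control DN and 20.4% of control CD4 cells. Of the cells with 5 or more Kcnq5 UMIs of 2000, it held 69.3% in control DN and 59.6% in control CD4. Since the cells were clustered on genes that vary with the members, these are descriptions.

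Other Kcnq5-rich clusters carried the set unevenly. Cluster 10, led by the killer cell lectin-like receptor genes Klra5 and Klra7, held 2185 control DN cells with Kcnq5 at 1937 CPM and Anxa1 at 214 CPM, but Ckb at 119 and Npas2 at 6.74 CPM. Cluster 1, led by predicted genes such as Gm36975 and with a median of 2189 UMIs, had Kcnq5 at 2496 CPM in 1688 control CD4 cells, with Slc35f3 at 56.2, Ckb at 55.2 and Anxa1 at 53.6 CPM. Cap2 was at 45.8, Aqp9 at 30.7 and Npas2 at 23.7 CPM there, above their control CD4 levels of 28.7, 22.7 and 15.5 CPM. Kcnq5 thus parted from Ckb and Anxa1 in cluster 1, where Kcnq5 was abundant and those 2 genes were below their CD4 averages. Cluster 5, the largest group of control CD4 cells (2982), had Kcnq5 at 347 CPM with Slc35f3 at 1.19 and Cap2 at 0.792 CPM. Averaged within clusters, r with Kcnq5 was under 0.1 for every member in both libraries, from −0.0215 (Ckb) to 0.083 (Slc35f3) in control CD4. Single clusters went above the library values. In cluster 1, r was 0.302 for Cap2 in control CD4 and 0.246 for Slc35f3 in control DN, and in cluster 10 it was 0.127 for Cap2 and 0.150 for Anxa1 in control DN. In cluster 9 it was near 0, from −0.016 for Anxa1 to 0.069 for Slc35f3 in control CD4 and from −0.081 for Ckb to 0.051 for Cap2 in control DN, and Ckb was at −0.190 in cluster 10 of control CD4.

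**Figure D4:**
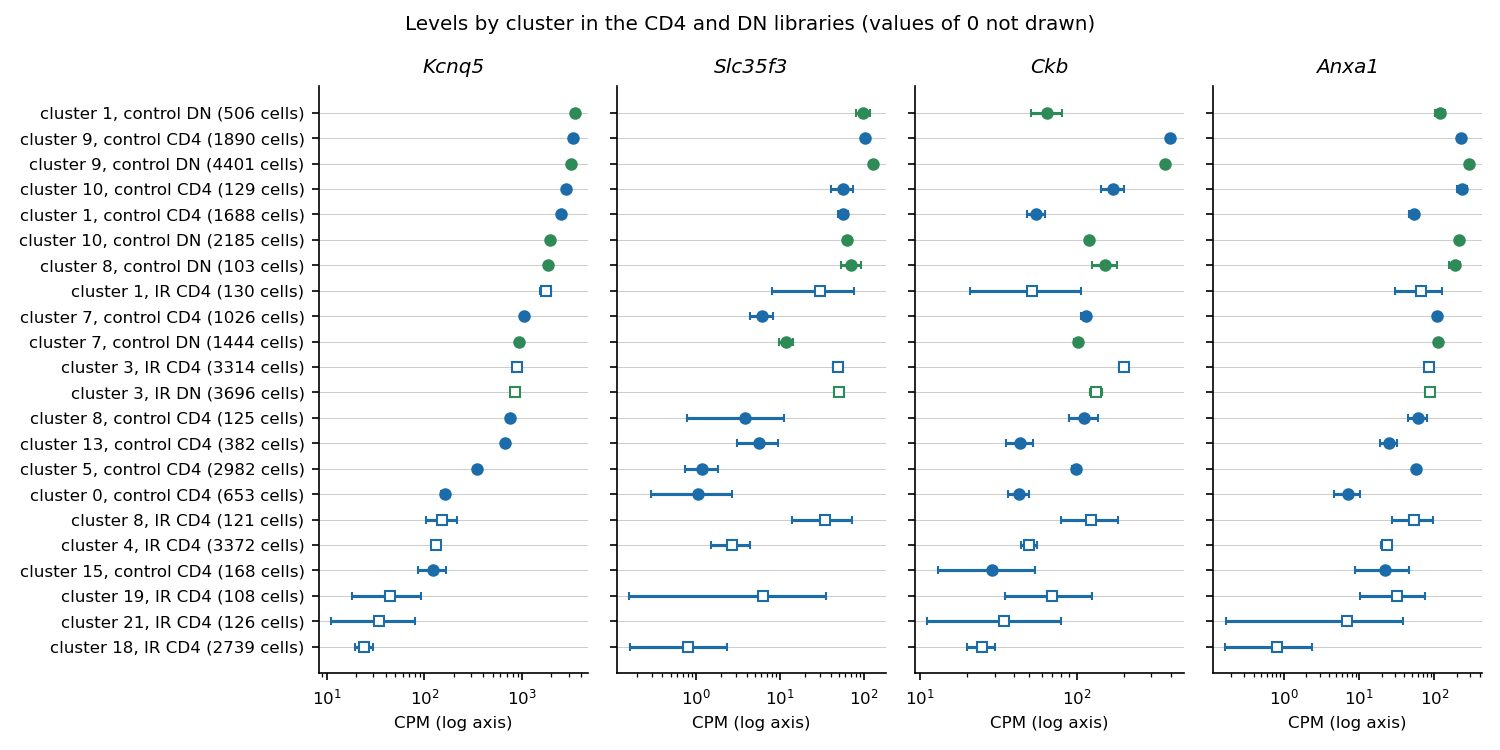
Level of Kcnq5, Slc35f3, Ckb and Anxa1 (CPM, log scale) by cluster in the CD4 and DN libraries. Each point has at least 100 cells, and the clusters were made without the 7 genes. Cluster 9 is highest or near highest for each gene drawn in control CD4 and control DN (Kcnq5 3287 and 3165 CPM), and cluster 1 has Kcnq5 at 2496 CPM in control CD4 with Ckb at 55.2 CPM.

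In the IR libraries, which clustered almost apart from control, the set was found mostly in cluster 3 among DN and CD4 cells. It held 3696 of the 4042 IR DN cells and 3314 IR CD4 cells, and Kcnq5 was 841 CPM in the DN and 880.1 CPM in the CD4 cells. Slc35f3 was 50.2 and 49.0 CPM and Anxa1 87.5 and 85.0 CPM in the same DN and CD4 cells, while Ckb was 133 and 199 CPM. Among IR clusters of at least 100 cells, Kcnq5 was highest in the 130 IR CD4 cells of cluster 1, at 1740 CPM (1524 to 1977). In the 3372 IR CD4 cells of cluster 4, led by Tnfrsf4 and Foxp3, Kcnq5 was 131 CPM, and in the 2739 of cluster 18, led by Pdlim4 and Igfbp4, it was 23.9 CPM. The higher IR DN level thus went with a larger share of cluster 3 cells, 91.4% of DN against 32.8% of CD4.

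Among control DN cells, Kcnq5 was compared between cells with and without a UMI of 3 marker genes at 2000 UMIs. It was 2607 CPM (2560 to 2654) in the 2255 cells with Klrb1c, the gene of the NK1.1 receptor, and 2282 (2256 to 2308) in the 6338 without. In the 286 cells with Pdcd1, which encodes PD-1, it was 1267 CPM (1177 to 1363), against 2405 (2382 to 2429) in the other 8307. In the 1527 cells with Fcer1g, an adaptor of Fc and NK receptors, it was 1813 CPM (1765 to 1861), against 2487 (2461 to 2513) in the other 7066. Kcnq5 was thus abundant on both sides of each split and lower in the Pdcd1 and Fcer1g cells, with no replicate to test the difference.

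Levels were lower after IR for every member in CD4 and DN cells. In CD4 cells 4 of 7 members were called lower and 0 higher (15.1% of 9036 genes lower, 7.71% higher), with log2 ratios of −1.91 for Kcnq5, −1.48 for Cap2, −1.39 for Anxa1 and −1.37 for Aqp9. Npas2 (−0.95), Slc35f3 (−0.85) and Ckb (−0.79) were lower by less than 2-fold. With the removed features kept in the totals, all 7 were called lower in CD4. In DN cells 5 of 7 were called lower and 0 higher (11.2% of 9201 genes lower, 8.31% higher), namely Kcnq5 (−1.52), Cap2 (−1.47), Anxa1 (−1.47), Aqp9 (−1.13) and Npas2 (−1.02). Ckb (−0.93) and Slc35f3 (−0.79) were under 2-fold. In CD8 cells only Kcnq5, Ckb and Anxa1 reached 10 CPM, and all 3 were called lower (17.7% of 9110 genes lower, 7.93% higher). The ratios were −1.31, −1.43 and −1.65, that of Kcnq5 from a level not told apart from free RNA above. The median of all genes was −0.26 for CD4, −0.38 for CD8 and −0.26 for DN, so part of each ratio is shared by the whole library.

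Genes with long introns were lower as a class in the IR libraries. In DN the genes in the bin of intronic length that holds Kcnq5 had a median log2 ratio of −0.61, and those in the bin of Ckb 0.34. Centred on its bin, Kcnq5 was −0.90 in DN cells, −0.76 among CD4 cells and −0.43 among CD8 cells and was no longer called. Cap2 was −0.72 in DN and −0.58 in CD4, Aqp9 −0.61 and −0.72, Npas2 −0.28 and −0.05, and Slc35f3 −0.14 and −0.08. Ckb, with almost no intron, moved the other way, to −1.27 in DN and −1.25 in CD4. Anxa1 moved little, to −1.28 and −1.27. These 2 were the members called in DN and in CD4 after centring. Depth and the removed features also differed with condition. In cells thinned to 500 UMIs Kcnq5 was −1.62 in DN and −2.01 in CD4, and with the removed features kept it was −1.69 and −2.27. Cell Ranger version and condition cannot be told apart.

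**Figure D5:**
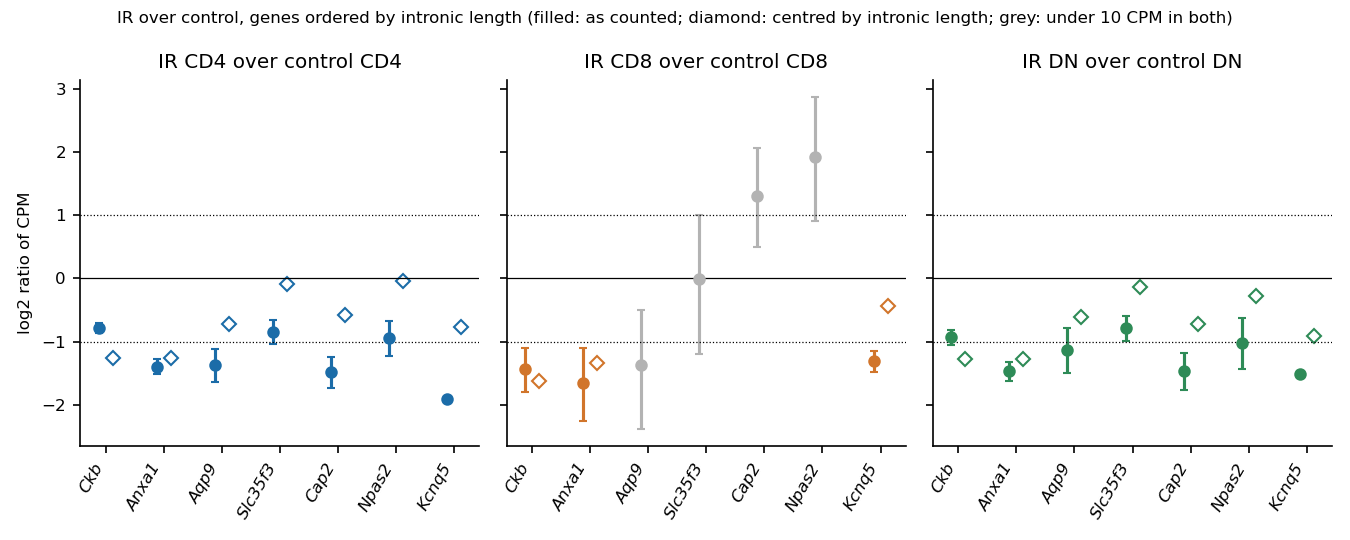
Log2 ratio of IR over control for the 7 genes in CD4, CD8 and DN cells, before and after centring on genes of like intronic length. Kcnq5 in DN goes from −1.52 to −0.90 and in CD4 from −1.91 to −0.76, while Ckb goes from −0.93 to −1.27 in DN and from −0.79 to −1.25 in CD4.

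For Ckb and Anxa1 in CD8 cells the result turned on which barcodes were kept. Ckb was 1085 CPM in the 304 IR barcodes with few Cd3 UMIs that were left out, and with these clusters kept the CD8 ratio of Ckb was 0.13 and that of Anxa1 −0.79. Myeloid markers summed to 5.31 to 19.2 CPM in the control and 23.0 to 125 CPM in the IR libraries after filtering, with 4 of 8 at 10 CPM or more in some library and S100a8 at 0 UMIs in control CD8 and control DN. Erythroid markers summed to 1.16 to 1.28 CPM in control and 20.1 to 27.5 CPM after IR, with 2 of 4 at 10 CPM or more. Their part in the IR ratios was not tested.

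Within their gene families the members mostly stood alone. Of 9 potassium channel genes of lymphocytes outside the KCNQ family, 2 reached 10 CPM, and none was called between subsets. Kcnn4, the calcium-activated channel of activated T cells, was 120.0, 116 and 99.3 CPM in the control CD4, CD8 and DN libraries, and 87.2, 87.4 and 76.2 CPM after IR. Kcnk5, a two-pore background channel gene, was 55.8, 49.6 and 37.5 CPM in the control CD4, CD8 and DN libraries, and 12.1, 8.85 and 15.05 CPM after IR, and was called lower in all 3 subsets. All 5 store-operated calcium entry genes reached 10 CPM and 0 were called between subsets. Over all genes, 1.35% to 7.74% were called higher and 1.40% to 4.21% lower between subsets, so short lists would hold few calls. Stim1 and Stim2, the calcium sensors, were called lower after IR in all 3 subsets (Stim1 at −1.57, −1.16 and −1.26 in CD4, CD8 and DN). By subset, 11.2% to 17.7% of all genes were lower after IR.

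The same held for the other roles, against the same shares over all genes. Of 6 SLC35F genes only Slc35f3 and Slc35f2 reached 10 CPM, and Slc35f2 was between 6.27 and 17.3 CPM with no call between subsets. It was called lower after IR in CD4 cells (−1.46). Ckb was the only one of 7 creatine pathway genes at 10 CPM. Aqp3 was the other aquaporin gene of 9 to reach it, at 11.02 CPM in IR CD8 (called higher after IR, 1.16). All 9 actin turnover genes reached 10 CPM, but Cap2 was the only one called between control subsets, while its paralog Cap1 lay between 151 and 319 CPM in all libraries. After IR, Gsn, the actin-severing gelsolin gene, was called lower in DN against CD4 (−1.43) and CD8 (−1.22). Of 13 annexin and formyl peptide receptor genes 6 reached 10 CPM and only Anxa1 was called between subsets. Fpr1 and Fpr2, its receptor genes, were at 0.129 CPM or less.

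Of 18 circadian clock genes 15 reached 10 CPM. Between control DN and control CD8 only Npas2 and Rora (1.07) were called, both higher (3.53% of all genes higher, 3.03% lower). Between control DN and control CD4 none was called (1.35% of all genes higher, 1.40% lower). Between IR DN and IR CD8, 6 were called higher, Npas2 and Arntl (1.42) among them, where 7.74% of all genes were higher. Arntl, the partner of Npas2, was 104, 64.0 and 93.7 CPM in the control CD4, CD8 and DN libraries, and 44.3, 22.2 and 59.3 CPM after IR. Clock itself lay between 37.2 and 81.3 CPM. After IR, 4 clock genes were called higher and 1, Npas2, lower in DN (8.31% and 11.2% of all genes). In CD4 cells 3 were higher and 2 lower (7.71% and 15.1% of all genes) and in CD8 cells 1 was higher and 3 lower (7.93% and 17.7%), with Npas2 not called in either.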

How the data were processed

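The deposited matrices hold raw UMI counts for each gene in each barcode; the authors made them from 10x Genomics 3′ libraries with Cell Ranger and did not normalise them. The submitters' processing notes name Cell Ranger 6.0.1 and the mm10 genome, and the file headers name 5.0.1 for control and 6.0.1 for IR. The study's methods name default settings. What these were for introns and strand is not given in the sources used here. Groups were taken from the sample titles.

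Barcodes with under 500 features or over 20% mitochondrial UMIs and the 5% with the most UMIs per library (likely doublets, no caller run) were removed. Mitochondrial, ribosomal protein and Malat1 features (104) were left out of totals. Cells were clustered with scanpy 1.11.5 and igraph 0.11.9 (2000 variable genes, 30 components, 15 neighbours, resolution 1, no batch correction) on 21556 features seen in 5 or more cells, and 2 of 23 clusters with a Cd3 UMI in under 50% of cells were left out. UMIs were summed over cells and given as CPM, at 4386054 to 60782621 retained UMIs per library. With 1 library per group no test was run. A count of 0 was set to 3 counts in ratios, 0.0494 to 0.684 CPM by library. Intervals are exact 95% intervals (scipy 1.17.1, numpy 2.4.6, pandas 2.3.3, Python 3.11.15) for counting error only. For ratios centred on intronic length, genes were put in 20 bins of equal size (GENCODE M21, 32235 of 32285 features matched by Ensembl identifier). Figures were drawn with matplotlib 3.10.9. The counting rule and the correlations were tested on simulated data.

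The genes named are the 7 members, up to 4 genes of each family list at 10 CPM or more, and the 8 genes with the highest and 4 with the lowest r with Kcnq5 at 50 CPM or more. Other genes named (Clock, Fpr1, Fpr2, Gsn, Klrb1c, Pdcd1, Fcer1g, and the leading genes of clusters) were chosen after their values were seen. The members and lists were chosen with earlier results of these data known. Alternatives were other cell filters, scaling by TMM (R 4.3.3 with edgeR 4.0.16), totals with the removed features, other minimum levels, a mean over cells, other depths of thinning, Spearman's rho, centring on intronic length, and r within clusters. A result that needs a certain gene is not reported here.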

Additional observations from a re-analysis of the deposited data

Results flagged for a closer look

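Cap2 and Npas2 had log2 ratios of IR over control that pointed in opposite directions between T cell subsets. Cap2 was at −1.48 in CD4 and −1.47 in DN cells and at 1.31 (0.50 to 2.07) in CD8 cells. Npas2 was at −0.95 in CD4 and −1.02 in DN cells and at 1.92 (0.91 to 2.88) in CD8 cells. The CD8 ratios rest on 20 against 57 UMIs for Cap2 and 15 against 28 for Npas2, all under 10 CPM, and with 1 library per group the difference between subsets was not tested.

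Ckb was at 1085 CPM (987 to 1190) in 304 IR barcodes of the clusters with few Cd3 UMIs, which were left out of the T cell levels, and at 638 CPM (503 to 799) in the 37 control barcodes of the same clusters. It was at most 245 CPM in a T cell library.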

How the results depend on the processing

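Over all alternatives run, 695 values of the members' log2 ratios were counted as the same, on their side of the 2-fold rule. A further 39 kept the direction and were no longer called, 14 became called and 2 were counted as reversed. A small change of sign was not always counted as reversed. Slc35f3 in IR CD8 over control CD8 went from −0.008 to 0.14 in cells thinned to 500 UMIs and is among the 695. A minimum of 50 CPM leaves fewer members to count, and the members called higher were then 3 for control CD4 over CD8, 2 for IR DN over IR CD4, 3 for IR DN over IR CD8 and 2 for IR CD4 over IR CD8. Those called lower after IR were then 2 in CD4, 1 in CD8 and 3 in DN. Centring on intronic length left 2 members higher in IR DN over IR CD4, and 2 lower after IR in CD4 and 2 in DN. With the removed features kept in the totals, 7 members were lower after IR in CD4. With no minimum CPM, 2 members (Cap2 and Npas2) were higher after IR in CD8. With no cell filters, or with the clusters with few Cd3 UMIs kept, 1 member was lower after IR in CD8, and the Ckb ratio there was 0.22 and 0.13. Members with r of 0.1 or more with Kcnq5 numbered 2 in control CD4 and 0 in control DN at 500 UMIs, and 0 in each as a mean within clusters, where r of Ckb was −0.0215 in control CD4 and −0.0036 in control DN. TMM scaling put Anxa1 in IR DN over IR CD4 at 0.97. No paired analysis was possible because each group has 1 library and the subsets are groups of the design, not replicates. In IR CD8 the values of Slc35f3, Aqp9, Npas2 and Cap2 rest on 9, 11, 15 and 20 UMIs.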
